A study of Mus musculus with 27 samples.

Results

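The 8 genes described here are Srebf2, Insig1, Hmgcs1, Idi1, Fdft1, Sqle, Lss and Cyp51, a panel of cholesterol synthesis enzymes and SREBP2 pathway genes. They were taken by symbol from the probe annotation, with the probe set of highest mean level for each symbol, and all 8 were among the 19937 genes measured with at least 1 probe set of their own. Their levels were followed in mouse hearts after transverse aortic constriction (TAC), an operation that narrows the aorta and loads the heart with pressure. RNA from 27 heart samples was read on whole-transcript arrays, in 9 groups of 3 arrays: sham surgery with DMSO vehicle, TAC with DMSO vehicle, and TAC with JQ1, each at days 3, 11 and 28. JQ1 is a small molecule that keeps the BET bromodomain proteins off acetylated chromatin. All animals were C57Bl/6J males, 10 to 12 weeks old. The constriction gave a peak pressure gradient of about 50 mmHg, and injections began at day 1.5. The sources used here do not state the dose, and no group had sham surgery with JQ1. The labels call the mice littermates and do not say that each array came from a separate animal, so the p-values measure the spread between these arrays, which may be technical.

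Cells make cholesterol from acetyl-CoA through mevalonate, farnesyl diphosphate, squalene and lanosterol. The enzymes are switched on together by SREBP2, the product of Srebf2. When membrane sterol is low SREBP2 leaves the endoplasmic reticulum and is cut to an active form, and when sterol is plentiful INSIG1, the product of an SREBP target gene, holds it back. Because activation is by cleavage, the level of Srebf2 mRNA is not a measure of active SREBP2. Heart muscle also takes up cholesterol from lipoproteins.

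The 8 genes did not move as a set. Fdft1, squalene synthase, which makes the first committed sterol precursor, fell with TAC on each of the 3 days, and with JQ1 it rose above TAC vehicle at day 11. Sqle, squalene epoxidase, the next enzyme, rose with TAC at day 3. Hmgcs1, HMG-CoA synthase, fell with TAC at day 28, and Srebf2 was lower with JQ1 at day 28, both by calls that rested on single arrays. Idi1, Lss, Cyp51 and Insig1 passed the test in no comparison of TAC or JQ1 within a day. Idi1 was called higher with JQ1 on the mean of the 3 days, a call kept in 8 of 18 fits without 1 array. Each comparison below is a difference of group means on the deposited log2 scale ± its standard error (n = 3 arrays per group). It was tested with limma, with Benjamini-Hochberg adjustment over all genes and a threshold of 0.05 on the adjusted p. "Rose", "fell" and "called" refer to that threshold.

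**Figure D1:**
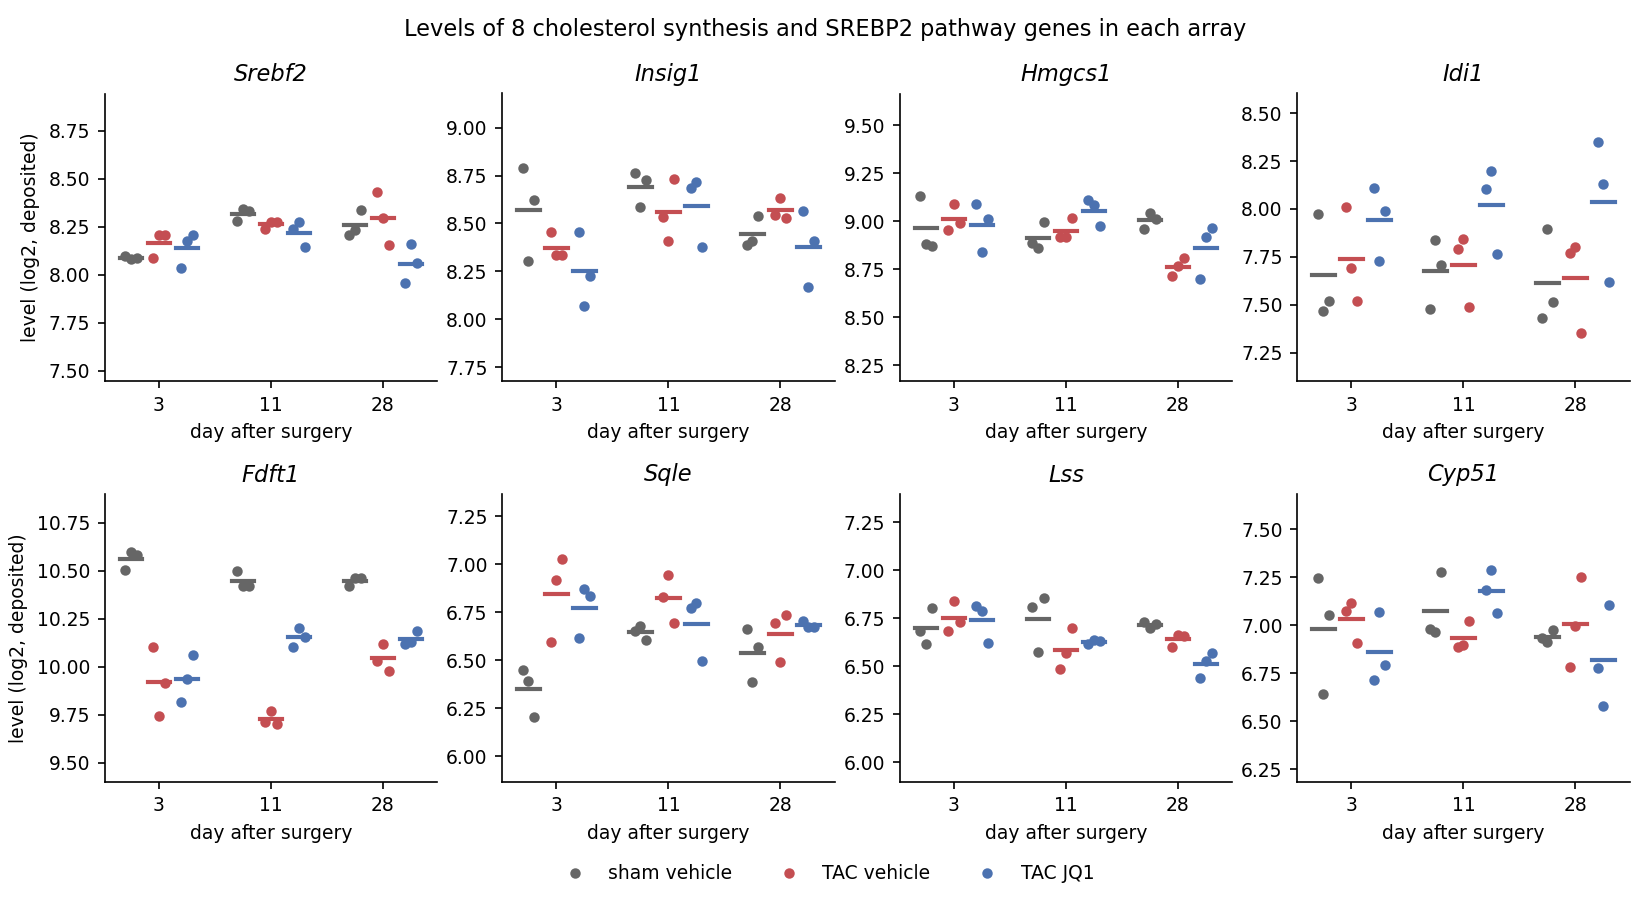
Level of each of the 8 genes in every array (y axis, deposited log2 value, each panel spanning the same range) against the day after surgery (x axis), with grey for sham vehicle, red for TAC vehicle and blue for TAC JQ1. Points are arrays and bars are group means of 3 arrays. The 9 sham arrays of Fdft1 lie between 10.42 and 10.60 and the 18 TAC arrays below them.

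With TAC vehicle against sham vehicle, 2 of the 8 genes were called at day 3 (Fdft1 lower, Sqle higher), where 7.55% of all genes were called. At day 11 it was 1 of 8 (Fdft1 lower, against 15.5% of all genes), and at day 28 it was 2 of 8 (Fdft1 and Hmgcs1 lower, against 15.1%). The median change of the 8 was 0.05, −0.09 and 0.03 at days 3, 11 and 28, beside medians over all genes of −0.03, 0.01 and −0.05. With TAC JQ1 against TAC vehicle 0 of 8 were called by limma at day 3, and 0 of 8 had an unadjusted p under 0.05, where 11.9% of all genes were called and 23.1% had such a p. At day 11 it was 1 (Fdft1 higher, against 16% of all genes), and at day 28 it was 1 (Srebf2 lower, against 19.6%). The medians were −0.03, 0.07 and −0.04, beside 0.02, −0.05 and 0.06 over all genes. The panel was chosen by name, with earlier results of these data known. A count of 1 or 2 calls among 8 genes is too small to set apart from the share over all genes.

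Overlap of the arrays gave a similar count. TAC vehicle and sham vehicle did not overlap for 2 of the 8 genes at day 3 (Fdft1 and Sqle), 3 at day 11 (Fdft1, Sqle and Srebf2) and 3 at day 28 (Fdft1, Hmgcs1 and Lss), beside 21.6%, 33.4% and 37.7% of all genes. TAC JQ1 and TAC vehicle did not overlap for 0, 2 (Fdft1 and Cyp51) and 1 (Lss), beside 23.1%, 36.3% and 35% of all genes. TAC JQ1 and sham vehicle did not overlap for 2 (Fdft1 and Sqle), 2 (Fdft1 and Srebf2) and 4 (Fdft1, Sqle, Lss and Srebf2), beside 26.6%, 32.6% and 33.3%. In the test of TAC JQ1 against sham vehicle 2 genes were called at day 3 (Fdft1 and Sqle), 1 at day 11 (Fdft1) and 2 at day 28 (Fdft1 and Srebf2), beside 17.6%, 10.5% and 19.9% of all genes. The 3 comparisons of a day share arrays in pairs, so they are given side by side.

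**Figure D2:**
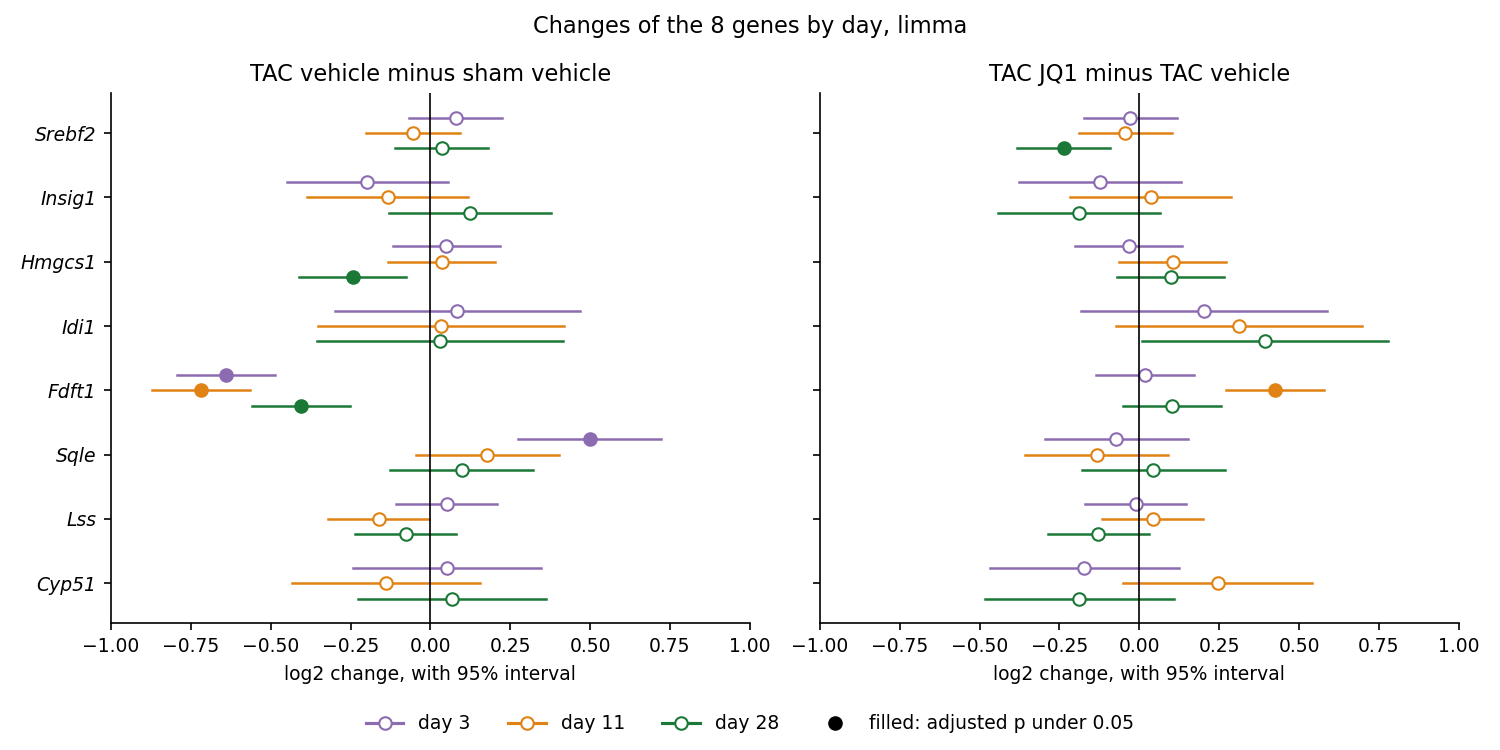
Change of each of the 8 genes (rows) on the log2 scale (x axis) for TAC vehicle minus sham vehicle (left) and TAC JQ1 minus TAC vehicle (right). Points are limma estimates from 3 arrays per group, lines are 95% confidence intervals, colours are days, and filled points have an adjusted p under 0.05. Fdft1 is the only row filled on all 3 days at the left, from −0.72 to −0.41.

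The promoters are shown first, because SREBP2 acts by binding sterol regulatory elements close to the start of these genes. NF-Y, which binds the CCAAT box, and SP1, which binds the GC box, are its usual partners. Of the 8 genes 6 matched a RefSeq promoter (GRCm38.p6, 250 bases before to 50 after the start). The 3 of them with a called change follow, 5′ to 3′ in the direction of transcription, with sterol regulatory element matches (TCACNCCAC) and CCAAT boxes in capitals, where a CCAAT box on the opposite strand reads ATTGG. Hmgcs1 lies at chr13:119690101-119690400, Idi1 at chr13:8885356-8885655 and Srebf2 at chr15:82147019-82147318, all on the plus strand.
Hmgcs1: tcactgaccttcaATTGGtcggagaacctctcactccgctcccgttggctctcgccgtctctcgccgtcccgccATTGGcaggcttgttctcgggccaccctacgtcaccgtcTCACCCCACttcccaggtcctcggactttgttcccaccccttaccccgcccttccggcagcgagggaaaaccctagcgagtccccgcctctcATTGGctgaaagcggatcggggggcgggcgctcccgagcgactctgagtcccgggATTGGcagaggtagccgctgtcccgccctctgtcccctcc
Idi1: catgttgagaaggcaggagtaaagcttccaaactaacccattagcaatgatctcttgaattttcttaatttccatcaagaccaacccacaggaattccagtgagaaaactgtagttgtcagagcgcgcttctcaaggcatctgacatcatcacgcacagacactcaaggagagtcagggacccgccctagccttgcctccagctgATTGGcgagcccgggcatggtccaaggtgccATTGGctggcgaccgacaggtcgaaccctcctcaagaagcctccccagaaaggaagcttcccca
Srebf2: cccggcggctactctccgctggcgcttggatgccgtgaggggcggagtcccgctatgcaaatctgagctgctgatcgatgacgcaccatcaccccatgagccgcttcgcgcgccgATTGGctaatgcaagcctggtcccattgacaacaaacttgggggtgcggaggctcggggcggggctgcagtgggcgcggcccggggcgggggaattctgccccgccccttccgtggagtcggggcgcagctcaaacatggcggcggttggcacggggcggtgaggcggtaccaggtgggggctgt
The Hmgcs1 window holds TCACCCCAC beginning at position −137 from the start, on the plus strand. Among the 6 windows it alone held TCACNCCAC on either strand, a motif found in 1.242% of 32851 promoters. A CCAAT box stood in 6 of 6 (37.41% of all promoters), with 4 copies in Hmgcs1, 2 in Idi1 and 1 in each of Srebf2, Insig1, Lss and Cyp51. A GC box, GGGCGG, also stood in 6 of 6 (35.66% of all), with 5 copies in Srebf2, 3 in Hmgcs1 and 1 in Idi1. No copies of these motifs overlapped in the 6 windows. These are letter matches in a fixed window, and no binding was measured.

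Srebf2 encodes SREBP2 itself. In sham hearts its level was 8.10, 8.08 and 8.08 at day 3, 8.28, 8.34 and 8.33 at day 11 and 8.21, 8.23 and 8.34 at day 28. TAC vehicle hearts read 8.09, 8.21 and 8.21, then 8.24, 8.27 and 8.27, then 8.43, 8.29 and 8.16. TAC JQ1 hearts read 8.03, 8.18 and 8.21, then 8.24, 8.27 and 8.14, then 7.96, 8.16 and 8.06. The arrays thus stayed between 7.96 and 8.43, and the lowest group was TAC JQ1 at day 28, in which only replicate 2 reached the lowest TAC vehicle array. Srebf2 did not pass the test for TAC on any day, with changes of 0.08, −0.05 and 0.04. With JQ1 it was called lower at day 28, by −0.24 ± 0.07 (1.18-fold, adjusted p = 0.0201), and TAC JQ1 was also below sham that day by −0.20 ± 0.07 (adjusted p = 0.0463). The JQ1 call ended when any of 3 day 28 arrays was left out: the first TAC vehicle replicate (−0.17, 0.122), the second (−0.24, 0.0514) or the first TAC JQ1 replicate (−0.19, 0.104). It also ended after quantile normalization (0.107) and in a fit of the 2 groups alone (0.148). The call against sham ended without sham replicate 1 (adjusted p = 0.0542), 2 (0.0809) or 3 (0.201) or TAC JQ1 replicate 1 (0.233) or 3 (0.088), with a replicate block (0.053), after quantile normalization (0.0713) and in a fit of the 2 groups alone (0.154). In the sham hearts alone the level differed between days at an unadjusted p of 0.00953, which did not pass after adjustment (0.471, moderated F test of limma, where 0.0652% of all genes were called), though it passed with array weights (0.0118).

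Insig1 encodes the membrane protein that retains SREBP2, and its mRNA is often read as a reporter of SREBP activity. It was 8.79, 8.30 and 8.62 in sham hearts at day 3, 8.45, 8.33 and 8.33 with TAC vehicle and 8.46, 8.07 and 8.23 with TAC JQ1. At day 11 the same groups read 8.76, 8.59 and 8.73, then 8.54, 8.41 and 8.73, then 8.69, 8.72 and 8.38, and at day 28 they read 8.39, 8.41 and 8.54, then 8.54, 8.63 and 8.53, then 8.57, 8.17 and 8.41. All 3 groups overlapped in part on every day. The TAC changes were −0.20, −0.13 and 0.12 and the JQ1 changes −0.12, 0.04 and −0.19, with standard errors of 0.12 and none called. TAC JQ1 hearts stood −0.32 ± 0.12 against sham at day 3 (adjusted p = 0.0748). That difference passed without sham replicate 2 (−0.45, adjusted p = 0.0138) or TAC JQ1 replicate 1 (−0.42, 0.0324), with array weights (−0.50, 5.53e-05), after quantile normalization (−0.31, 0.0431), without the dimmest genes (0.0495) and with a replicate block (0.0489).

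Hmgcs1 joins acetyl-CoA and acetoacetyl-CoA to HMG-CoA, the substrate of the rate-limiting step. At day 28 it read 8.96, 9.04 and 9.01 in sham hearts, 8.71, 8.77 and 8.81 with TAC vehicle and 8.70, 8.92 and 8.97 with TAC JQ1. The TAC vehicle arrays all lay below the sham arrays and TAC JQ1 arrays lay on both sides. The change with TAC was −0.24 ± 0.08 (1.18-fold lower, adjusted p = 0.0445). Leaving out any 1 of the 6 arrays ended this call, with changes of −0.27 to −0.22 and adjusted p of 0.0718 (without sham replicate 1), 0.133 (sham 2), 0.103 (sham 3), 0.13 (TAC vehicle 1), 0.0865 (TAC vehicle 2) and 0.0792 (TAC vehicle 3). It also ended with arrays centred on their median (0.0734) and with a replicate block (0.059). At the earlier days the values were 9.13, 8.88 and 8.87 (sham), 8.96, 9.09 and 8.99 (TAC vehicle) and 9.09, 8.84 and 9.01 (TAC JQ1) at day 3, and 8.89, 8.86 and 8.996, then 8.92, 8.92 and 9.02, then 9.11, 9.08 and 8.97 at day 11. These groups overlapped in each pair. The TAC changes there were 0.05 and 0.04, and the JQ1 changes over the 3 days were −0.03, 0.10 and 0.10, none called. Its TAC effect by day was not called (adjusted p = 0.275) and passed with array weights (0.0283).

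Idi1 interconverts the isoprene units that build farnesyl diphosphate. Sham hearts read 7.97, 7.47 and 7.52 at day 3, 7.48, 7.84 and 7.71 at day 11 and 7.43, 7.89 and 7.51 at day 28. TAC vehicle hearts read 8.01, 7.69 and 7.52, then 7.79, 7.85 and 7.49, then 7.77, 7.80 and 7.35. TAC JQ1 hearts read 8.11, 7.73 and 7.99, then 8.11, 8.20 and 7.76, then 8.35, 8.13 and 7.62. The 3 JQ1 groups had the highest means of the 9 groups, from 7.94 to 8.03, yet in each of the 3 days they overlapped the TAC vehicle arrays. Idi1 was also the noisiest of the 8 genes, with a residual SD of 0.25, above that of 96.7% of all genes. TAC changes were 0.09, 0.03 and 0.03, and JQ1 changes were 0.20, 0.31 and 0.39 with a standard error of 0.19, none called within a day. The day 28 change passed without TAC JQ1 replicate 3 (0.60, adjusted p = 0.027). On the mean of the 3 days JQ1 was called higher, by 0.30 ± 0.11 (1.23-fold, adjusted p = 0.0362), in a comparison where 29.1% of all genes were called. That call stood in 8 of the 18 fits that left out 1 array (changes of 0.25 to 0.37). It ended without TAC vehicle day 3 replicates 2 or 3, TAC JQ1 day 3 replicates 1 or 3, TAC vehicle day 11 replicate 3, TAC JQ1 day 11 replicates 1 or 2, TAC vehicle day 28 replicate 3 or TAC JQ1 day 28 replicates 1 or 2, with adjusted p of 0.0557 to 0.0885. The other probe set of Idi1, with a mean level of 6.98, gave 0.04, 0.28 and 0.10 for JQ1 by day and 0.14 on the mean of the days (adjusted p = 0.291 over all probe sets), and 0.229 when it stood for the gene.

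Fdft1 joins a pair of farnesyl diphosphates into squalene, and so divides sterol synthesis from the branches to ubiquinone, dolichol and prenylated proteins. In sham hearts its level was 10.50, 10.60 and 10.58 at day 3, 10.50, 10.42 and 10.42 at day 11 and 10.42, 10.46 and 10.46 at day 28. With TAC vehicle it was 10.10, 9.75 and 9.91, then 9.71, 9.77 and 9.70, then 10.03, 10.12 and 9.98. Every TAC vehicle array lay below every sham array. The fall was −0.64 ± 0.07 at day 3 (1.56-fold lower, adjusted p = 1.32e-05), −0.72 ± 0.07 at day 11 (1.64-fold, 6.41e-07) and −0.41 ± 0.07 at day 28 (1.32-fold, 0.00051). All 3 calls stood in each of the 15 alternative fits of each day, with changes of −0.73 to −0.55, −0.84 to −0.69 and −0.54 to −0.37. On the mean of the 3 days the change was −0.59 ± 0.04 (adjusted p = 9.39e-10), where 25.9% of all genes were called in either direction. The difference in the TAC effect between days was not called (moderated F test of limma, adjusted p = 0.224, where 1.31% of all genes were called). It passed with array weights (0.0231).

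With TAC JQ1 Fdft1 read 9.81, 9.94 and 10.06 at day 3, 10.10, 10.20 and 10.16 at day 11 and 10.12, 10.13 and 10.19 at day 28. At day 3 these arrays lay among the TAC vehicle arrays, at day 11 all lay above them and at day 28 they overlapped at the edge. The change against TAC vehicle was 0.02 ± 0.07 at day 3 (adjusted p = 0.943), 0.42 ± 0.07 at day 11 (1.34-fold higher, adjusted p = 0.000372) and 0.10 ± 0.07 at day 28 (adjusted p = 0.332). The day 11 call stood in all 15 alternative fits, with changes of 0.38 to 0.47. On the mean of the 3 days JQ1 raised Fdft1 by 0.18 ± 0.04 (adjusted p = 0.00211), in a comparison where 29.1% of all genes and 2 of the 8 (with Idi1) were called. Whether the JQ1 effect differed between days missed the threshold, with an unadjusted p of 0.00188 and an adjusted p of 0.0808 by the moderated F test, where 1.07% of all genes were called. It passed with arrays centred on their median (adjusted p = 0.0491), without the dimmest genes (0.0444), with the trend and robust options (0.0481), with array weights (0.0076), and without TAC vehicle day 3 replicate 2 (0.0269) or TAC JQ1 day 3 replicate 3 (0.0458). Between pairs of days the effect at day 11 was higher than at day 3 by 0.41 (adjusted p = 0.136) and day 28 stood −0.32 against day 11 (0.0961). Between pairs of days 0 of the 8 genes were called by limma for the TAC effect (day 11 against 3, 28 against 11 and 28 against 3, where 0.351%, 0.145% and 1.6% of all genes were called), and 0 of 8 for the JQ1 effect (0.0853%, 0.853% and 0.271%). At an unadjusted p under 0.05 they were 1, 2 and 3 of the 8 for TAC, beside 9.36%, 11.6% and 13.4% of all genes, and 1, 2 and 1 for JQ1, beside 10.8%, 23.6% and 12.2%.

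Fdft1 in JQ1-treated TAC hearts stayed below sham. It was lower by −0.62 ± 0.07 at day 3 (adjusted p = 4.28e-06), −0.29 ± 0.07 at day 11 (0.0115) and −0.30 ± 0.07 at day 28 (0.00436), and no array reached a sham array. The day 11 difference missed the threshold without sham replicate 1 (−0.27, 0.0621) or without TAC JQ1 replicate 1 (−0.27, 0.064). Fdft1 has another probe set on the array, which gave −0.63, −0.84 and −0.54 for TAC and −0.01, 0.47 and 0.11 for JQ1 at days 3, 11 and 28. Its adjusted p over all probe sets was 0.00154, 2.66e-05 and 0.00209 for TAC and 0.00601 for JQ1 at day 11.

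Sqle adds oxygen to squalene and is a second control point of the pathway. Sham hearts at day 3 read 6.45, 6.39 and 6.21, TAC vehicle hearts 6.60, 6.92 and 7.03, and TAC JQ1 hearts 6.62, 6.87 and 6.83. Neither TAC group overlapped sham, and the TAC groups overlapped each other. TAC raised Sqle by 0.50 ± 0.11 (1.41-fold, adjusted p = 0.00484), and TAC JQ1 stood 0.43 ± 0.11 above sham (0.00693). The signal was dim, with a mean level of 6.67 over all arrays. The day 3 sham arrays lay under 6.55, the mean level that marked the dimmest genes. The change from TAC vehicle to TAC JQ1 was −0.07 ± 0.11 with a 95% interval of −0.30 to 0.15. In a fit of only the 2 groups compared neither rise passed (adjusted p = 0.0857 and 0.0588), and the second also missed without sham replicate 3 (0.36, 0.0509). At day 11 the groups read 6.65, 6.68 and 6.61 (sham), 6.83, 6.95 and 6.70 (TAC vehicle) and 6.77, 6.80 and 6.49 (TAC JQ1), and at day 28 they read 6.66, 6.39 and 6.57, then 6.69, 6.49 and 6.73, then 6.70, 6.67 and 6.68. TAC vehicle lay above sham without overlap at day 11, by 0.18 ± 0.11 (adjusted p = 0.34). At day 28 the change was 0.10 ± 0.11 and the groups overlapped. On the mean of the 3 days TAC raised Sqle by 0.26 ± 0.06 (adjusted p = 0.00273). Day 3 sham was the lowest of the 9 groups, at 6.35, and the sham level by day did not pass (unadjusted p = 0.0349, adjusted p = 0.665). The TAC effect by day did not pass either (adjusted p = 0.303). With array weights both passed (0.0077 for the sham level and 0.0469 for the TAC effect).

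Lss closes oxidosqualene to lanosterol, the first ring sterol, and its arrays ran only from 6.44 to 6.86. At day 28 it read 6.73, 6.70 and 6.72 in sham hearts, 6.60, 6.66 and 6.66 with TAC vehicle and 6.44, 6.53 and 6.57 with TAC JQ1. These 3 groups did not overlap, and TAC JQ1 stood −0.21 ± 0.08 against sham (adjusted p = 0.0601). That difference passed under quantile normalization (−0.27, 0.033), with arrays centred on their median (−0.25, 0.0444), without the dimmest genes (0.0346) and with array weights (0.034). At day 3 it read 6.68, 6.62 and 6.80 (sham), 6.68, 6.84 and 6.73 (TAC vehicle) and 6.81, 6.79 and 6.62 (TAC JQ1), and at day 11 it read 6.81, 6.57 and 6.86, then 6.49, 6.57 and 6.70, then 6.62, 6.63 and 6.63. These groups overlapped. At days 3 and 11 the TAC changes were 0.05 and −0.16, and the JQ1 changes were −0.01 and 0.04, with none called. The day 11 change with TAC had an adjusted p of 0.182 and passed without sham replicate 2 (−0.25, 0.0346) and with array weights (−0.24, 0.00355).

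Cyp51 removes the methyl group at carbon 14 of lanosterol. Sham hearts read 7.24, 6.64 and 7.05 at day 3, 6.98, 6.97 and 7.28 at day 11 and 6.93, 6.91 and 6.98 at day 28. At days 3 and 28 TAC vehicle hearts read 7.07, 7.11 and 6.91, then 6.78, 6.99 and 7.25, and TAC JQ1 hearts read 6.72, 7.07 and 6.79, then 6.78, 6.58 and 7.11. The groups overlapped on those days, and the residual SD of 0.19 was above that of 87.4% of all genes. TAC changes were 0.05, −0.14 and 0.07 and JQ1 changes −0.17, 0.24 and −0.19, each with a standard error of 0.14 and none called. At day 11 the TAC JQ1 arrays (7.19, 7.29 and 7.06) lay above the TAC vehicle arrays (6.89, 6.90 and 7.02) without overlap, with an adjusted p of 0.276. With array weights that change was 0.30 and passed (adjusted p = 0.0256).

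The order of the 9 groups set Fdft1 apart from the other genes of the panel by its span. Its 3 sham groups were on top (10.56, 10.45 and 10.45), a drop of 0.29 led to TAC JQ1 at day 11 (10.15, adjusted p = 0.0115), and TAC vehicle at day 11 was at the bottom (9.73). In the order of means that was the only step between neighbours that passed the test in any of the 8 genes. Of the 36 pairs of groups 23 were called for Fdft1, 5 for Sqle, 4 for Srebf2, 2 for Hmgcs1, 2 for Lss, 1 for Insig1 and 0 for Idi1 and Cyp51, beside 11.7% of all genes and pairs. The highest and lowest group of Fdft1 differed by 0.83, a span wider than that of 93.5% of all genes. The spans of the other 7 ran from 0.24 in Lss to 0.50 in Sqle, wider than those of 25.2% and 79.2% of all genes. The call of Insig1 was between TAC JQ1 at day 3 and sham at day 11 (0.44, adjusted p = 0.0144), and the calls of Lss set TAC JQ1 at day 28 below TAC vehicle at day 3 and sham at day 11 (−0.24 in both).

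No common course of the 8 genes was seen over the groups, and none was tested for. Among their 28 pairs the correlation of the 9 group means was above 0 in 15, with a median Pearson r of 0.08. It ran from −0.88 for Fdft1 with Sqle (Spearman −0.87) to 0.67 for Cyp51 with Insig1 (Spearman 0.67). The 9 points share arrays and normalization between genes, and 6 of the 9 are TAC groups. Some genes varied little beyond their noise, such as Idi1 (span 0.42, residual SD 0.25), so a shared course could be missed. The mean of the 8 genes, each centred, moved over the groups by only 0.13. It was highest in TAC JQ1 at day 11 (0.08) and sham at day 11 (0.08) and lowest in TAC JQ1 at day 28 (−0.05). Among 4045 genes outside the lists whose group means spanned at least 0.5, those most like this mean were Sympk (r = 0.87), Rai2 (0.85), Serpina1c (0.82), Tmcc2 (0.78), Shmt2 (0.78), Cyfip2 (0.78), Kif21a (0.77) and Ak4 (0.77). Over 4123 genes with such a span, listed genes included, Fdft1 alone was most like Lrrc39 (0.98), Pitpnc1 (0.98), Adi1 (0.98), Ctf1 (0.98), Slc2a12 (0.98), Acp6 (0.98), Hnmt (0.97) and Gpt2 (0.97). Over 4124 such genes Sqle alone was most like Nrap (0.93), Tubb6 (0.93), Nop58 (0.93), Tnfrsf12a (0.91), Hspb1 (0.91), Lmna (0.91), Pdia4 (0.90) and AI506816 (0.89). These are orders of likeness over 9 group means, with no test.

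The hearts differed in their cell markers as well as in these genes. The counts below stand beside shares of all genes called of 7.55%, 15.5% and 15.1% for TAC and 11.9%, 16% and 19.6% for JQ1 at days 3, 11 and 28. The lowest value of 10 cardiomyocyte markers, such as Tnnt2 and Myh6, in any array was 12.01, for Ryr2. Their mean lay between 13.41 and 13.54 over the groups, and 0, 2 and 3 of the 10 were called lower with TAC (Ryr2 by −0.45 and Myh6 by −0.26 at day 28), as Fdft1 was. With JQ1 0, 1 and 0 of them were called higher. At days 3, 11 and 28 their mean was 13.49, 13.51 and 13.54 in sham hearts and 13.47, 13.41 and 13.41 with TAC vehicle. With TAC JQ1 it was 13.48, 13.49 and 13.43. At day 11 these 3 groups did not overlap, and TAC vehicle was lowest, as it was for Fdft1. On the mean of the 3 days 5 of the 10 were called lower with TAC and 2 higher with JQ1, beside 25.9% and 29.1% of all genes. By mean level these 10 markers ranked from percentile 99.4 (Ryr2) to 100 (Actc1) of all genes, near the top of the scale. Whether the arrays respond in full at such levels was not tested. The narrow range of the marker mean therefore does not show that cardiomyocyte content was steady. The mean of 10 macrophage markers was 9.11, 8.80 and 8.70 in sham hearts, 9.55, 9.45 and 9.78 with TAC vehicle and 9.04, 8.96 and 9.29 with TAC JQ1. With TAC 3, 9 and 9 of them were called higher, and with JQ1 6, 7 and 6 of them were called lower. Of 8 fibroblast markers 2, 6 and 8 were called higher with TAC and 3, 4 and 4 lower with JQ1. Of 7 proliferation genes 7, 7 and 2 were called higher with TAC and 7, 0 and 0 lower with JQ1, and their mean at day 3, where Sqle rose, was 6.54 in sham hearts, 7.81 with TAC vehicle and 6.80 with TAC JQ1. Of 8 endothelial markers 0, 2 and 1 were called higher with TAC and 2, 2 and 6 lower with JQ1, and their mean at day 28, where Srebf2 was lower, was 10.40 with TAC vehicle and 10.03 with TAC JQ1. Only 2 of 5 listed red cell markers were measured, and 0, 1 and 2 of them were called higher with JQ1. Their mean was 7.89, 8.08 and 7.98 with TAC vehicle and 7.85, 8.86 and 8.99 with TAC JQ1. The highest TAC JQ1 array at day 11 stood at 9.79. Of 8 smooth muscle and pericyte markers 2, 2 and 0 were called higher with TAC and 1, 1 and 2 lower. With JQ1 0, 1 and 0 of these 8 were called higher and 0, 0 and 2 lower. Of 5 mesothelium markers 2 were called higher with JQ1 at day 28. Adipocyte markers (group means of 6.63 to 6.85) and Schwann cell markers (7.36 to 7.59) had 0 or 1 call in each of these comparisons. The same held for neutrophil markers, and T cell and B cell markers had no call. In these bulk samples fewer cells of a type and less RNA per cell cannot be told apart. The part of these cells in the changes of Fdft1, Sqle, Hmgcs1, Srebf2 and Idi1 was not tested.

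**Figure D3:**
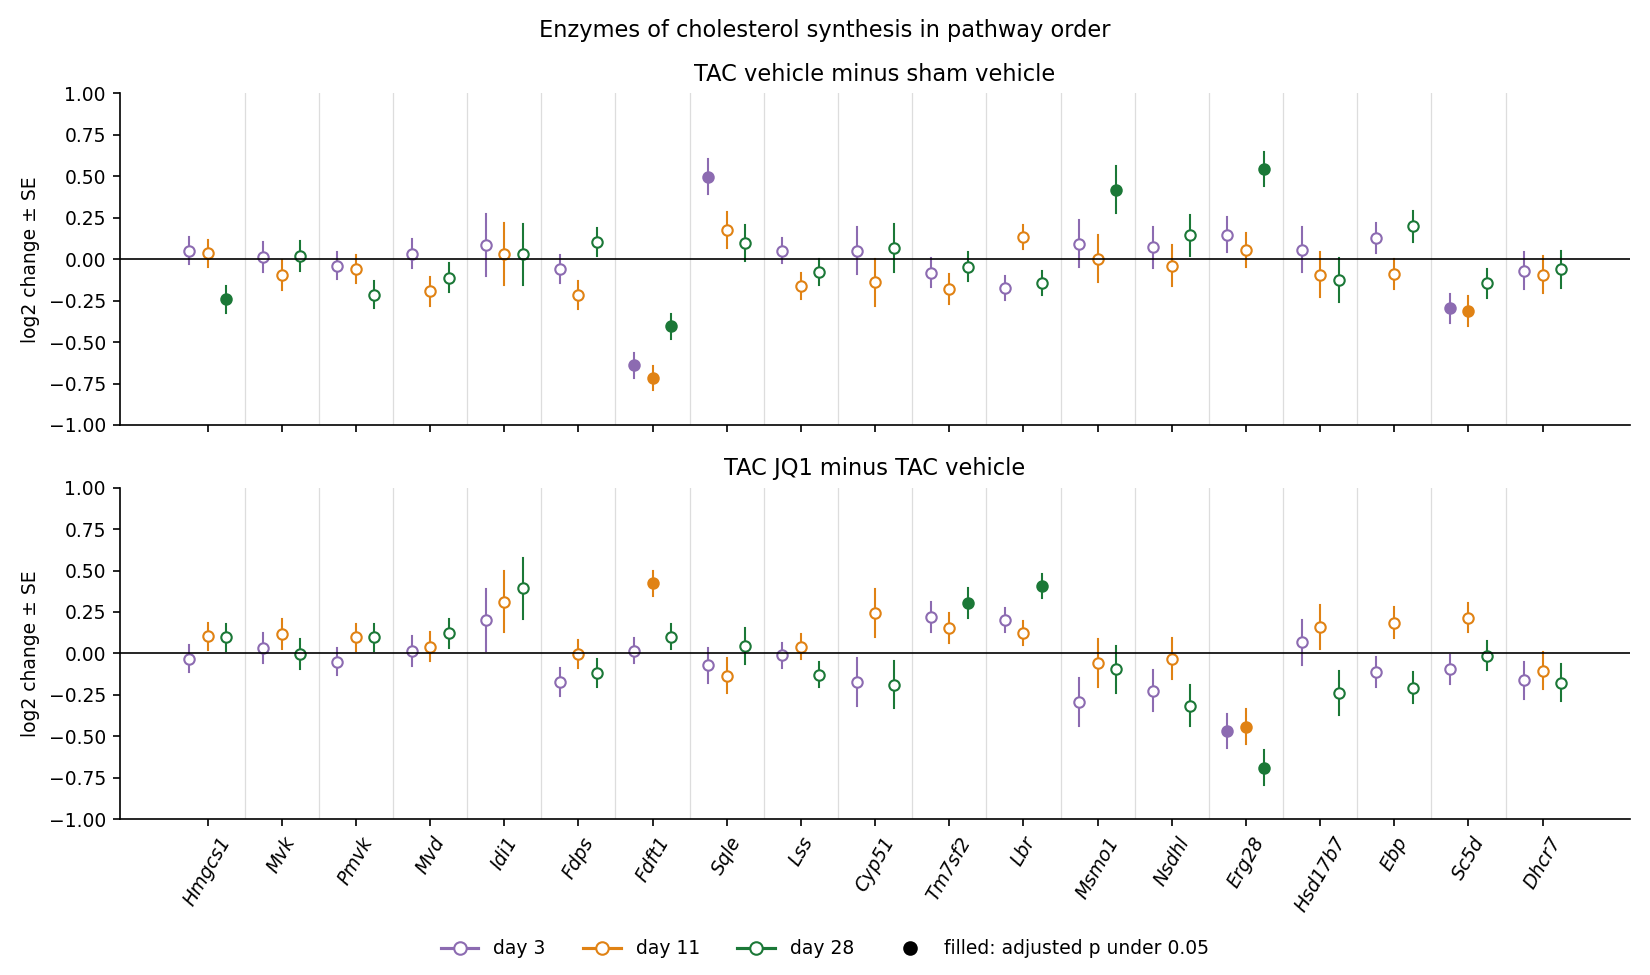
Change on the log2 scale (y axis, limma estimate ± SE, 3 arrays per group) of the 6 enzymes of the panel and 13 other cholesterol synthesis genes, in the order of the pathway (x axis), for TAC vehicle minus sham vehicle (top) and TAC JQ1 minus TAC vehicle (bottom). Colours are days and filled points have an adjusted p under 0.05. Fdft1 at the top and Erg28 at the bottom are the only genes filled on all 3 days.

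Around the panel, 13 of 16 further listed genes of cholesterol synthesis were measured. With TAC 0 rose and 1 fell at days 3 and 11, and 2 rose and 0 fell at day 28, beside 7.55%, 15.5% and 15.1% of all genes called. With JQ1 1 fell at day 3, 1 fell at day 11, and 2 rose and 1 fell at day 28, beside 11.9%, 16% and 19.6%. Sc5d, the sterol C5 desaturase near the end of the pathway, fell with TAC by −0.30 ± 0.09 at day 3 (adjusted p = 0.0405) and −0.31 ± 0.09 at day 11 (0.0161), and by −0.25 on the mean of the days (0.000516). Its day 3 call ended without sham replicate 1 or 3 or TAC vehicle replicate 2 or 3, and its day 11 call without sham replicate 3 or TAC vehicle replicate 1. Erg28, a membrane protein that tethers the C4 demethylation enzymes, rose with TAC at day 28 by 0.54 ± 0.10 (adjusted p = 0.000834) and fell with JQ1 by −0.47, −0.44 and −0.69 ± 0.10 (0.00442, 0.00508 and 5.29e-05). Each of these 4 calls stood without any 1 of its arrays. The TAC and the JQ1 comparisons share the TAC vehicle arrays. Lbr and Tm7sf2, both sterol C14 reductases that act just after Cyp51, rose with JQ1 at day 28 by 0.41 ± 0.07 (0.000331) and 0.31 ± 0.09 (0.0185). The Tm7sf2 call ended without TAC vehicle replicate 2 or 3 or TAC JQ1 replicate 1 or 2. Msmo1, the C4 methyl oxidase, rose with TAC at day 28 by 0.42 ± 0.14 (0.0498), a call that ended without any 1 of 5 of the 6 arrays (all but sham replicate 3) and in 6 of 9 other fits. Nsdhl, which follows it, was not called within a day and was lower with JQ1 on the mean of the days by −0.19 (0.0468), in 7 of 18 fits without 1 array. Mvk, Pmvk, Mvd and Fdps, which carry mevalonate to farnesyl diphosphate between Hmgcs1 and Fdft1, were not called for TAC or JQ1 on any day, with changes of −0.22 to 0.12. Hsd17b7, Ebp and Dhcr7, late enzymes, were not called either (−0.24 to 0.20).

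A list of SREBP2 activation and turnover, which also held Srebf1, had 13 measured genes. Of these, 3 rose and 2 fell with TAC on the mean of the 3 days, beside 25.9% of all genes called. Rnf145 (0.23, adjusted p = 0.000366), Erlin1 (0.26, 0.00751) and Pgrmc1 (0.22, 0.0124) rose. Srebf1, the sister gene of Srebf2, fell (−0.29, 5.61e-05), as did Fbxw7, the ubiquitin ligase subunit that removes active SREBPs (−0.14, 0.0223). With JQ1, where 29.1% of all genes were called, 0 rose and 3 fell: Erlin2 (−0.18, 0.00961), Spring1 (−0.13, 0.0258) and Fbxw7 (−0.13, 0.036). By day, Spring1 changed with JQ1 at day 28 (−0.37) and stood at −0.04 and 0.01 at days 3 and 11, and Fbxw7 changed at day 3 (−0.36) and stood at 0.05 and −0.07 at days 11 and 28. Scap, the escort of SREBP2 out of the endoplasmic reticulum, was higher with JQ1 at day 3 (0.26 ± 0.07, 0.019) and lower at day 28 (−0.31 ± 0.07, 0.00343), where Srebf2 was also lower. Its day 3 call ended without TAC vehicle replicate 1 or 2 or TAC JQ1 replicate 1. The Spring1 call ended without any 1 of 5 arrays and the Fbxw7 calls without any 1 of 6 (TAC) or 9 (JQ1) of 18 arrays, with changes of −0.16 to −0.12, −0.17 to −0.12 and −0.15 to −0.10. The other probe set of Fbxw7 gave 0.02 for TAC.

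A further list held 12 measured genes named as SREBP2 targets, only some of them of sterol uptake or transport. Of the 12, 5 rose and 5 fell with TAC on the mean of the 3 days, where 25.9% of all genes were called. Fabp5 (0.41, adjusted p = 5.03e-05), Tmem97 (0.40, 0.000166), Npc2 (0.27, 0.000197) and Rdh11 (0.27, 0.00494) rose, and Npc1 (−0.46, 9.81e-07), Mmab (−0.50, 2.8e-06), Stard3 (−0.17, 0.000971) and Lpin1 (−0.33, 0.00408) fell. Npc1 and Npc2, which hand cholesterol to each other in the lysosome, moved in opposite directions. With JQ1, where 29.1% were called, 3 rose and 4 fell: Npc1 (0.28, 0.000372), Aacs (0.14, 0.0149) and Npc1l1 (0.17, 0.0166) rose, and Fabp5 (−0.58, 4.76e-07), Stard4 (−0.29, 1.47e-05), Tmem97 (−0.47, 2.26e-05) and Rdh11 (−0.24, 0.0127) fell. The 15 calls named here stood in each of the 18 fits without 1 array. The median change of the 12 was −0.0038 for TAC and −0.09 for JQ1, beside −0.03 and 0.02 over all genes. Within days, Npc1 fell with TAC by −0.38, −0.57 and −0.43 (adjusted p = 0.0147, 0.000209 and 0.00315), and with JQ1 it changed by 0.24, 0.52 and 0.09, of which day 11 passed (0.127, 0.000624 and 0.54). Its day 3 call with TAC ended without sham replicate 3 or TAC vehicle replicate 2.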

How the data were processed

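Total RNA from 10 to 20 mg of heart tissue was labelled with the Ambion WT Expression Kit and hybridised to Affymetrix arrays, per the labels' protocols. The deposited values of the 27 arrays were on a log2 scale as the authors gave them (34760 probe sets, 1.67 to 14.2, array medians of 6.95 to 7.04), with limma named in the submitters' processing notes. The sources used here do not name the normalization, and no count of reads or molecules lies behind a value, so the 3 arrays per group limit the precision. Of 22961 probe sets with a gene name in the platform annotation, 21640 named 1 gene and 1321 several, and the latter were left out. For each of 19937 genes the probe set of highest mean level was used. Levels of different probe sets are not compared with each other, except with the cutoff of the dimmest genes and the top of the scale. A model of the 9 group means was fitted to all genes with limma 3.58.1 in R 4.3.3 (lmFit and eBayes, 18 residual and 4.90 prior degrees of freedom). Contrasts were tested two-sided with Benjamini-Hochberg adjustment over all genes, separately for each comparison, at 0.05. The fit was tested on simulated data. The 8 genes and the gene lists were chosen with earlier results of these data known. Named from the lists were all measured cholesterol enzymes and, from other lists, up to 4 called genes in each direction by p. For likeness, the 8 genes of highest correlation were named. Promoters are from RefSeq, GRCm38.p6. Alternatives were quantile normalization, median centring, the dimmest genes left out (mean level under 6.55), other probe set rules, trend and robust options, array weights, a replicate block, fits of 2 groups, and each array left out in turn. Likeness to Fdft1 alone and Sqle alone was chosen after seeing the data.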

Additional observations from a re-analysis of the deposited data

Results flagged for a closer look

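None of the 8 genes passed the tests of a difference in the TAC or JQ1 effect between days in the fit of the report (limma, adjusted over all genes), though Hmgcs1, Fdft1 and Sqle passed for TAC and Fdft1 for JQ1 with array weights. Genes of the surrounding lists passed. For the effect of TAC, the moderated F test over days passed for Apoe (adjusted p = 0.0145), Cyp27a1 (0.0123), Mid1ip1 (0.0442) and Nus1 (0.0236). For the effect of JQ1 it passed for Scap (0.0234), Lrp1 (0.00728) and Fads1 (0.0446).

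Between pairs of days, the TAC effect on Apoe was higher at day 11 than at day 3 by 0.785 (adjusted p = 0.0448) and at day 28 by 0.879 (0.0114). The TAC effect on Mid1ip1 was lower at day 11 than at day 3, a difference of −0.624 (0.0448). At day 28 against day 3 the TAC effect differed by 0.508 for Npc2 (0.0347), 0.931 for Cyp27a1 (0.00578) and −0.46 for Nus1 (0.0173). The JQ1 effect on Acacb differed by −0.681 between days 28 and 11 (0.032). Between days 28 and 3 it differed by −0.57 for Scap (0.0193), −0.784 for Lrp1 (0.00142) and −0.523 for Fads1 (0.0495). All differences are log2.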

How the results depend on the processing

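The 16 calls of the 8 genes kept their direction in every alternative fit. They kept the threshold 16 times of 16 without the dimmest genes, with probe sets averaged per gene, with trend and robust options and with array weights, and 15 times with median centring and with the second probe set. They kept it 14 times with quantile normalization and with the replicate block, 8 times of 12 in fits of 2 groups, and in 117 of 144 fits without 1 array. The counts of called genes among the 8 moved as follows, with the count of the report in parentheses. Quantile normalization gave 0 (1) for JQ1 at day 28. Median centring gave 1 (2) for TAC at day 28 and 1 (0) for the JQ1 effect by day, which was also 1 without the dimmest genes, with trend and robust options and with array weights. The second probe set gave 1 (2) for JQ1 on the mean of the days. Array weights gave 2 (1) for TAC and 2 (1) for JQ1 at day 11, 3 (1) for JQ1 against sham at day 11, 3 (0) for TAC by day (Hmgcs1, Fdft1 and Sqle), 2 (0) for sham by day (Sqle and Srebf2) and 74 (37) for pairs of groups. Fits of 2 groups gave 1 (2) for TAC and for JQ1 against sham at day 3, 0 (1) for JQ1 and 1 (2) for JQ1 against sham at day 28. The cause was not tested.

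Leaving out 1 array gave, for TAC at days 3, 11 and 28, 2 to 2, 1 to 2 and 1 to 1 called genes. For JQ1 it gave 0 to 0, 1 to 1 and 0 to 2, and for JQ1 against sham 1 to 3, 0 to 1 and 1 to 2. On the mean of the days it gave 2 to 2 (TAC) and 1 to 3 (JQ1), by day 0 to 0 (TAC), 0 to 1 (JQ1) and 0 to 0 (sham), and for pairs 29 to 42. With a replicate block 1 (2) gene was called for TAC at day 28 and 1 (2) for JQ1 against sham at day 28, and no other count moved by over 1.5 times. Same-numbered arrays showed no general tendency to deviate together. Of 108 such pairs 25 correlated above 0.1, with a median of −0.02 and a range of −0.46 to 0.50. Of 27 arrays 6 correlated best with an array of their own number. A median over all pairs cannot show whether some groups shared a batch. The second probe set turned the sign for Mid1ip1 (JQ1 day 11 −0.0865, TAC day 28 0.0118, JQ1 against sham day 28 0.0586, JQ1 mean of the days −0.00523) and for Fbxw7 (TAC mean of the days 0.0249).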

Other observations

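The lists beside the cholesterol pathway were described on the mean of the 3 days (limma, adjusted over all genes), where 25.9% of all genes were called for TAC and 29.1% for JQ1, and the median over all genes was −0.03 and 0.02. The TAC and JQ1 effects share the TAC vehicle arrays. A list of liver X receptor targets and other genes of sterol efflux and handling had 18 measured genes, not all of which answer to a sterol surplus. Of these 18 genes, 6 rose and 3 fell with TAC (median −0.03). Lrp1, a large lipoprotein receptor, rose by 0.51 (adjusted p = 1.32e-08), Ch25h by 0.67 (8.56e-05), Apoe by 0.35 (0.000541) and Abcg1, a sterol exporter, by 0.29 (0.000847). The TAC effect on Apoe was −0.21 at day 3 (adjusted p = 0.394), 0.58 at day 11 (0.00172) and 0.67 at day 28 (0.00047). Vldlr (−0.45, 1.04e-06), Nceh1 (−0.23, 0.000176) and Lpcat3 (−0.30, 0.00242) fell. With JQ1 2 rose and 9 fell (median −0.16). Mylip, which degrades the LDL receptor, rose by 0.38 (0.000144) and Lpcat3 by 0.26 (0.00631), and Lrp1 (−0.40, 2.99e-07), Scarb1 (−0.39, 1.15e-06), Cyp7b1 (−0.67, 7.58e-06) and Apoe (−0.34, 0.00066) fell. The JQ1 effect on Lrp1 was not the same on each day, and day 28 differed from day 3 by −0.784 (limma, adjusted p = 0.00142). On the mean of the days 9 of 10 macrophage markers and 8 of 8 fibroblast markers were called higher with TAC (medians of 0.76 and 0.56), and 8 of 10 and 6 of 8 lower with JQ1 (−0.42 and −0.51). Their part in these changes was not tested.

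Of 17 SREBP1 targets of fatty acid synthesis 7 rose and 5 fell with TAC (median 0.07). The desaturases Scd1 (0.65, adjusted p = 5.62e-08), Fads1 (0.36, 2.16e-06) and Fads2 (0.39, 1.62e-05) rose, as did the citrate carrier Slc25a1 (0.30, 2.43e-05). Acacb (−0.57, 1.69e-07), Mid1ip1 (−0.41, 4.37e-06), Gpam (−0.31, 4.65e-05) and Me1 (−0.24, 0.000659) fell, of which Mid1ip1 and Me1 lost the call with their second probe set. With JQ1 5 rose and 6 fell (median −0.01): Acly (0.25, 2.71e-05), Acss2 (0.27, 7.39e-05), Mid1ip1 (0.23, 0.00268) and Elovl5 (0.23, 0.00352) rose, and Fads1 (−0.36, 2.41e-06), Fads2 (−0.40, 1.16e-05), Gpam (−0.31, 3.68e-05) and Slc25a1 (−0.27, 7.41e-05) fell. The second probe set of Mid1ip1 gave −0.00523 for JQ1. The JQ1 effect on Fads1 at day 28 differed from that at day 3 by −0.523 (limma, adjusted p = 0.0495).

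The branch that leaves the pathway before Fdft1, toward ubiquinone, dolichol and prenylated proteins, had 13 measured genes, of which 2 rose and 4 fell with TAC (median −0.04). Srd5a3 (0.39, adjusted p = 4.11e-05) and Nus1 (0.13, 0.0132), both of dolichol synthesis, rose. The TAC effect on Nus1 was 0.30 at day 3 (0.00685), 0.26 at day 11 (0.0113) and −0.16 at day 28 (0.14). Coq2 (−0.34, 9e-08) and Pdss2 (−0.36, 8.04e-06), both of ubiquinone synthesis, fell, as did Fntb (−0.15, 0.0238) and Rabggta (−0.13, 0.0489), whose calls stood in 15 and 4 of 18 fits without 1 array. With JQ1 5 rose and 1 fell (median 0.08). Dolk (0.25, 4.27e-06), Fnta (0.23, 0.000518), Ggps1 (0.23, 0.000992) and Coq2 (0.14, 0.00273) rose, and Rabggta fell (−0.14, 0.0387, in 7 of 18 fits).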
